A study of Ovis aries with 8 samples.

Results

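The genes described here are those of interferon signalling and of the response to interferon, taken by name from a list of 54 gene symbols. A listed gene was measured when the deposited table held a row under its symbol, which was so for 43 of the 54 genes among 15380 rows. The other 11, IFNAR1, SOCS1, SOCS3, USP18, ISG15, OAS1, OAS2, BST2, GBP2, GBP4 and GBP6, had no row under those symbols and are not analysed here, apart from rows under an older name for IFNAR1 and ISG15. RNA was measured with 1-colour arrays in cultures labelled as pulmonary artery endothelial cells, the lining cells of the arteries from heart to lung, from near-term sheep fetuses. The 4 control cultures carried a normothermic label and were at passage 5 or 6, and the 4 cultures of the intrauterine growth restriction (IUGR) model carried a hyperthermic label and were at passage 3 or 4. The medium was DMEM with fetal bovine serum, no genetic change is named in the labels, and each culture was measured on 1 array. Temperature, growth restriction and passage number divide the cultures in the same way and cannot be told apart. The comparison asks how RNA levels in these cells differ between the growth restriction model and control.

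Interferons are secreted proteins that cells use to warn one another of infection. Type I interferons bind the receptor made of IFNAR1 and IFNAR2, and interferon gamma binds the receptor made of IFNGR1 and IFNGR2. Janus kinases on the receptors then phosphorylate STAT proteins, which enter the nucleus with or without IRF9 and switch on a large set of response genes. Endothelial cells carry both receptors, and their response includes antiviral proteins and the machinery that loads peptides on MHC class I molecules.

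Values below are log2 intensities unless a fold or percentage is named, listed for replicates 1 to 4 of a group in order, and each ± after a group mean is the standard deviation over its 4 arrays. Differences are IUGR minus control. Every adjusted p is from limma with Benjamini-Hochberg adjustment over all rows entering the fit, 15380 unless a setting tested fewer. The titles give each culture its own identifier and nothing more about its origin, so p-values measure the spread between these cultures. The 8 arrays had medians of 37.7 to 41.1 intensity units, and the 95th percentile of 127 olfactory receptor rows, 3.44, was taken as a background level. Of the 43 genes, 35 lay above it on every array and 8 lay at or below it on at least 1 array.

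The cultures differed in markers of cell type. All 15 measured endothelial markers had lower group means in IUGR, and their summed intensity ran from 6443 to 13353 in control and from 245 to 7342 in IUGR arrays. The junction genes PECAM1 and CDH5 were at 3.31 and 2.85 in IUGR replicate 2, below the background level, and at 3.63 and 3.49 in IUGR replicate 4, just above it. In these 2 cultures KDR, the main VEGF receptor of endothelial cells, was also below the background level (2.56 and 3.01), while the epithelial keratin gene KRT8 was 11.67 and 12.22 and the mesothelial factor gene WT1 7.92 and 9.21, so their markers go against the endothelial label. For all 14 fibroblast markers the IUGR mean was the higher, with summed intensities of 757 to 15127 in control, where control replicate 4 was the highest, and 11790 to 24303 in IUGR arrays. Of 9 mesothelial and epithelial markers 8 had higher group means in IUGR (sums of 235 to 1402 in control and 167 to 12619 in IUGR), as did 7 of 10 smooth muscle markers (1110 to 15582 and 1832 to 9047). Of 14 leukocyte markers 5 had higher group means in IUGR, with sums of 984 to 1614 and 312 to 1636. PTPRC, the pan-leukocyte surface phosphatase, was below the background level on all 8 arrays, as were MS4A1 and TYROBP. Others of the list, such as CD14 and CD68, were above it on every array. LAPTM5 was 10.09 in control replicate 2 and 9.95 in IUGR replicate 3, but 3.29 in IUGR replicate 2. The part of cell makeup in the differences below was examined only with an endothelial score in the fit and by leaving out arrays. In RNA from a whole culture, fewer cells of a type and less RNA per cell cannot be told apart.

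The interferon genes took no common direction between the groups. The group mean was higher in IUGR for 19 of the 43 genes and lower for 24, with a median difference of -0.09, beside a median of 0.00 over all rows, of which 50.8% were higher. No gene passed in limma at an adjusted p under 0.05, and of all 15380 rows 0 did (0%). At an unadjusted p under 0.05 there were 7 of the 43, or 16.3%, against 15.3% of all rows. Of these, 5 (11.6%) were lower in IUGR (CMPK2, GBP5, IFNGR1, TAP2 and IRF2), where 7.48% of all rows were, and 2 (4.65%) were higher (JAK2 and IFIT1), where 7.8% of all rows were. After quantile normalization the split was 6 lower and 1 higher, and 1398 and 1042 over all rows. After median centring it was 8 and 2, and 1417 and 1048 over all rows, against 1150 and 1200 before. The control and IUGR arrays did not overlap for 4 genes, or 9.3% of the 43 against 8.36% of all rows. All 4 (9.3%) were lower in IUGR, as were 3.99% of all rows, and 0 were higher, as were 4.37%. A difference of more than 1 in either direction was found for 4 of the 43 (9.3%) and for 9.01% of all rows. Taken over both directions, these shares lie near those of the whole table. That table holds 2441 rows at or below the background level on all 8 arrays, and the 43 genes hold 0. When only rows at or above the median were tested, 7 of 27 genes (25.9%) had an unadjusted p under 0.05, against 17.9% of rows. The few genes that stood out were more often lower than higher. With so few genes that split was not tested, and what follows describes single genes.

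**Figure D1:**
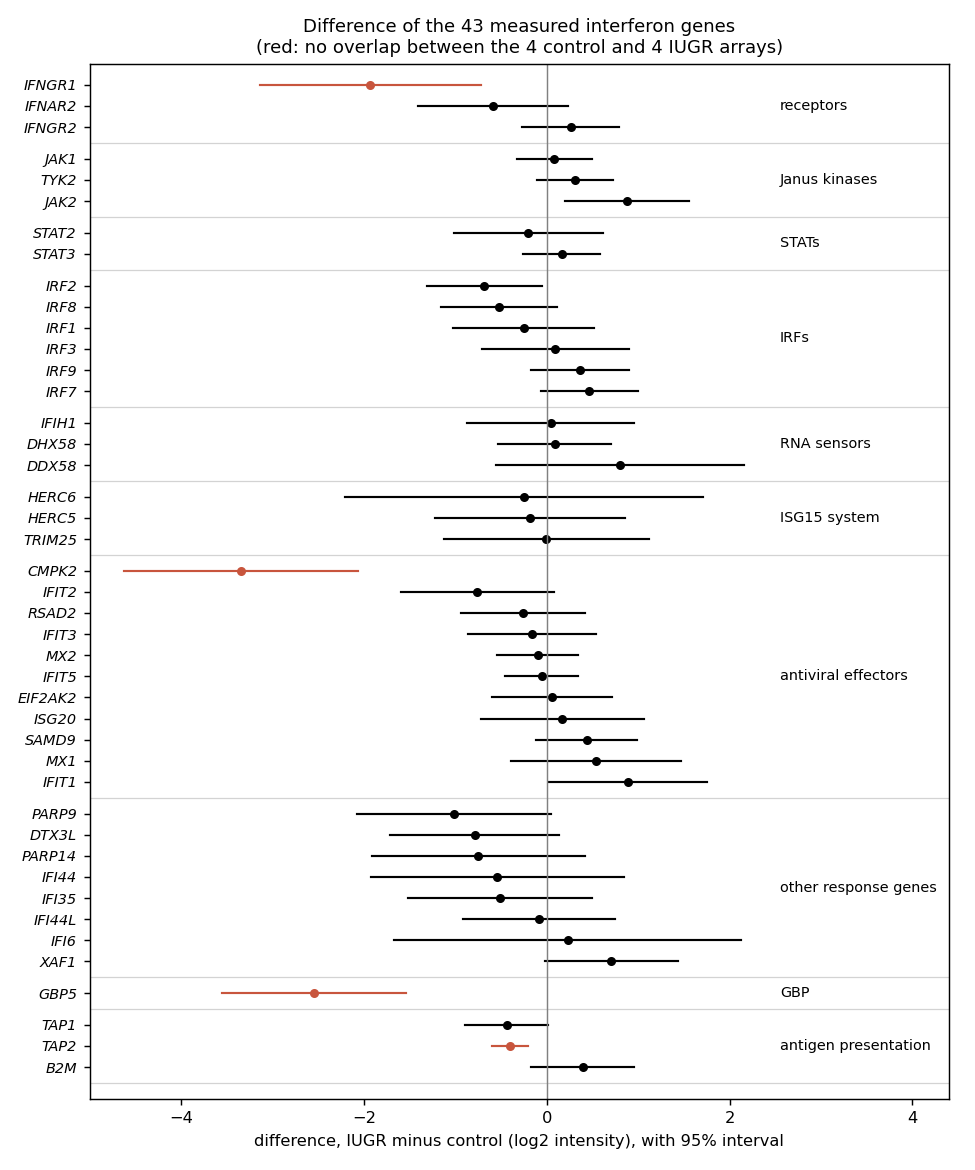
Difference between IUGR and control (log2 intensity, horizontal axis) for each of the 43 measured genes, grouped by role, with points for the limma estimate and lines for its 95% interval. Red marks the 4 genes whose groups did not overlap, CMPK2, GBP5, IFNGR1 and TAP2, all left of 0; most other intervals cross 0.

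Among the receptor chains, IFNGR1 had lower values in every IUGR culture, while the groups overlapped for its partner IFNGR2. IFNGR1 encodes the chain that binds interferon gamma, and its values in control were 8.97, 9.39, 9.17 and 7.12, and the IUGR arrays had 7.05, 6.41, 6.82 and 6.64. Controls 1 to 3 stood well apart, while control replicate 4 was within 0.1 of the highest IUGR array. The group means were 8.66 ± 1.04 and 6.73 ± 0.27 (n = 4 each), a difference of -1.93 ± 0.51 (SE) or 3.81-fold lower on the linear scale, and the adjusted p was 0.166. IFNGR2, the chain that brings JAK2 to the complex, was 8.56, 8.59, 8.46 and 8.93 in control and 9.48, 8.61, 8.96 and 8.55 in IUGR. Its groups overlapped, the difference was 0.26 with a 95% interval of -0.27 to 0.80, and the adjusted p was 0.636. IFNAR2, a chain of the type I receptor, was 4.85, 5.50, 5.87 and 5.23 in control and 4.58, 4.88, 4.10 and 5.52 in IUGR, overlapping, with a difference of -0.59 (95% interval -1.41 to 0.23, adjusted p = 0.472).

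A row named IFNAR1E, which RefSeq's sheep gene table lists as another name of IFNAR1, was read alongside and was singled out by name after its values were seen. It was 9.53, 9.56, 10.43 and 9.43 in control and 8.23, 8.04, 8.65 and 7.98 in IUGR arrays, with every IUGR array below every control. The group means were 9.74 ± 0.47 and 8.22 ± 0.30, a difference of -1.51 ± 0.26 (SE) with an adjusted p of 0.101. For each receptor, then, 1 chain had non-overlapping lower values and the other overlapped, and no chain passed the threshold.

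The Janus kinases all had higher group means in IUGR, and JAK2 differed the most. JAK2, which serves the interferon gamma receptor and many cytokine receptors, was 6.12, 5.68, 6.18 and 6.58 in control and 7.19, 6.92, 6.41 and 7.55 in IUGR arrays. Only IUGR replicate 3 lay within the control range. The means were 6.14 ± 0.37 and 7.02 ± 0.48, a difference of 0.88 ± 0.29 (SE), and the adjusted p was 0.232. JAK1, used by both interferon receptors, was 8.63, 8.33, 8.52 and 8.76 in control and 9.07, 8.58, 8.32 and 8.59 in IUGR, and its difference of 0.08 had a 95% interval of -0.33 to 0.49, so a change of more than 0.5 in either direction lies outside the interval. TYK2, the kinase of IFNAR1, differed by 0.30 (95% interval -0.11 to 0.72).

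STAT2, the STAT particular to type I and III interferon signalling, was 6.22, 6.70, 6.39 and 5.84 in control and 6.04, 5.98, 5.39 and 6.92 in IUGR arrays, with IUGR replicate 4 the highest and IUGR replicate 3 the lowest of all 8. Its difference was -0.20 (adjusted p = 0.850). STAT3, which mainly answers IL6 family cytokines, differed by 0.16, with a 95% interval of -0.26 to 0.58. Both genes were well above the background level on every array.

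The 6 interferon regulatory factors split, 3 with higher and 3 with lower group means in IUGR. IRF2, which competes with IRF1 for the same DNA sites, was 7.83, 8.20, 8.44 and 7.83 in control and 7.96, 6.86, 7.53 and 7.22 in IUGR arrays. IUGR replicates 2, 3 and 4 lay below every control and IUGR replicate 1 lay among them. The difference was -0.68 ± 0.26 (SE) with an adjusted p of 0.296. IRF1, the activator induced by interferon gamma, was 5.90, 5.81, 6.46 and 6.47 in control and 5.75, 5.63, 5.47 and 6.77 in IUGR, with 3 IUGR arrays below every control and IUGR replicate 4 above them all, and differed by -0.25 (adjusted p = 0.780). IRF9, which joins STAT2 in the ISGF3 complex, was 5.16, 5.26, 5.87 and 5.29 in control and 6.13, 5.99, 5.49 and 5.43 in IUGR, a difference of 0.36 (adjusted p = 0.502).

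IRF7, the factor that amplifies type I interferon production, was low in both groups, at 4.05, 3.81, 3.39 and 4.04 in control and 3.97, 4.42, 4.03 and 4.73 in IUGR arrays. Control replicate 3 was just below the background level, and IUGR replicates 2 and 4 were the highest of all. The difference was 0.47 with a 95% interval of -0.07 to 1.00 and an adjusted p of 0.387. IRF3, the factor that first responds to viral nucleic acid, and IRF8, better known from myeloid cells, differed by 0.10 and -0.52, with overlapping groups.

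**Figure D2:**
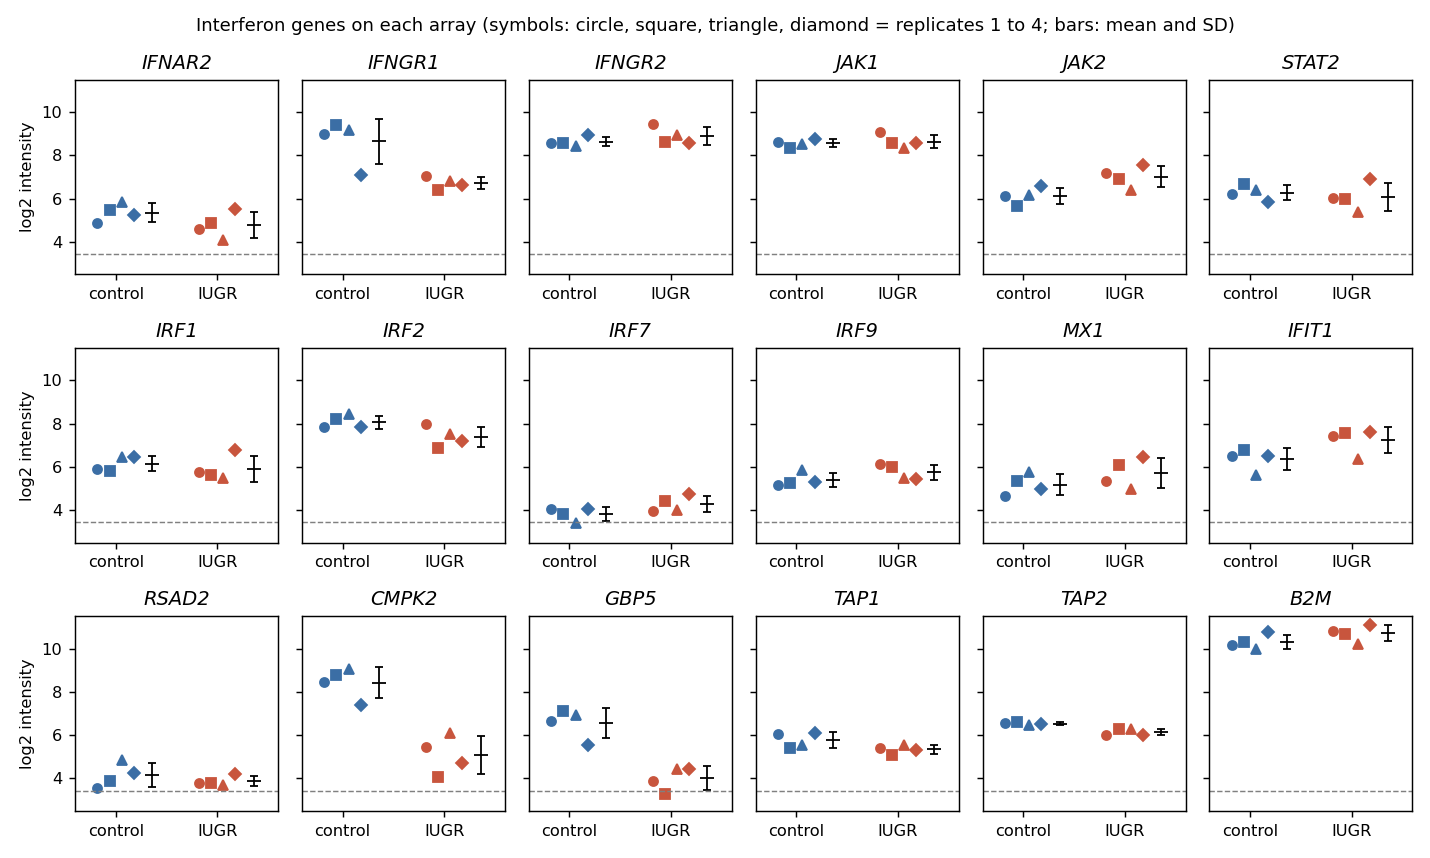
Log2 intensity (vertical axis) of 18 interferon genes on the 4 control (blue) and 4 IUGR (red) arrays, with symbols for replicates 1 to 4, black bars for the group mean and SD, and a dashed line at the background level of 3.44. CMPK2, GBP5, IFNGR1 and TAP2 separate by group, with control replicate 4 (blue diamond) nearest to the IUGR arrays for the first 3.

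Of the cytosolic sensors of viral RNA, none separated the groups. DDX58, the gene of RIG-I, was 3.42, 3.24, 3.38 and 3.11 in control and 3.05, 4.74, 3.10 and 5.46 in IUGR arrays. It was above the background level of 3.44 only in IUGR replicates 2 and 4, so the control values and those of IUGR replicates 1 and 3 are bounds and no fold is given. IFIH1, the gene of the related sensor MDA5, was 6.81, 6.31, 6.27 and 5.46 in control and 5.85, 6.70, 5.64 and 6.83 in IUGR, again with IUGR replicates 2 and 4 the highest of their group, and differed by 0.04 (95% interval -0.87 to 0.96). DHX58, the gene of LGP2, which tunes the other sensors, differed by 0.09 (95% interval -0.54 to 0.71). IUGR replicates 2 and 4 were also the arrays with the lowest endothelial markers.

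ISG15 is a ubiquitin-like protein that interferon-induced enzymes attach to other proteins. A row named ISG17, listed by RefSeq as another name of ISG15, was 3.83, 4.24, 4.17 and 4.49 in control and 4.14, 4.10, 4.30 and 4.16 in IUGR arrays, less than 1.1 above the background level on each. Its difference was -0.01, with a 95% interval of -0.34 to 0.32. HERC5 and HERC6, ligases of the same family of which HERC5 attaches ISG15 in human cells, differed by -0.18 and -0.25. HERC6 had the widest spread of the 43 genes, at 5.85, 5.29, 3.81 and 3.06 in control and 3.14, 3.50, 4.63 and 5.76 in IUGR, so that both groups covered nearly the same range and its 95% interval was -2.21 to 1.71. TRIM25, the ubiquitin ligase that activates RIG-I, had means of 7.36 ± 0.92 and 7.35 ± 0.38.

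Among the 11 measured antiviral effectors 1 gene stood out by size, CMPK2. It encodes a mitochondrial nucleotide kinase that is induced together with viperin in many cell types. Its values in control were 8.48, 8.78, 9.05 and 7.40, and the IUGR arrays had 5.46, 4.06, 6.10 and 4.71. Every IUGR array lay below every control, by at least 1.3, and control replicate 4 was the lowest control. The means of 8.43 ± 0.72 and 5.08 ± 0.89 (n = 4 each) give a difference of -3.35 ± 0.54 (SE), 10.2-fold lower in IUGR on the linear scale, the largest difference among the 43 genes, with an adjusted p of 0.101. As a percentage of the mean intensity of control replicates 1 to 3, CMPK2 was 38.2% in control replicate 4, and the IUGR arrays had 9.93%, 3.77%, 15.5% and 5.90%.

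RSAD2, the gene of viperin, lies next to CMPK2 in the sheep genome and had low values in both groups. It was 3.57, 3.87, 4.85 and 4.26 in control and 3.81, 3.78, 3.70 and 4.22 in IUGR arrays, within 1.5 of the background level throughout. Its groups overlapped, with a difference of -0.26, a 95% interval of -0.94 to 0.41 and an adjusted p of 0.729. The difference between the genes was not itself tested.

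The measured IFIT genes, whose proteins bind foreign RNA ends, were IFIT2, IFIT3, IFIT1 and IFIT5, which follow each other in the genome with no other protein-coding gene between them. IFIT1 was 6.50, 6.78, 5.62 and 6.52 in control and 7.44, 7.55, 6.38 and 7.61 in IUGR arrays. IUGR replicates 1, 2 and 4 lay above every control and IUGR replicate 3 lay among the controls. Its difference was 0.89 ± 0.36 (SE) with an adjusted p of 0.319. IFIT2 was 6.19, 5.83, 5.80 and 4.71 in control and 4.79, 4.82, 4.50 and 5.40 in IUGR, with control replicates 1 to 3 above every other array, and differed by -0.76 (95% interval -1.59 to 0.07, adjusted p = 0.367). IFIT3 and IFIT5 differed by -0.16 and -0.05, with 95% intervals of -0.86 to 0.54 and -0.45 to 0.34. Differences between these genes were not tested.

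MX1, a GTPase that blocks virus particles and a widely used marker of type I interferon exposure in sheep, was 4.66, 5.35, 5.75 and 4.97 in control and 5.33, 6.10, 4.99 and 6.47 in IUGR arrays. IUGR replicates 2 and 4 were above every control and the other IUGR arrays lay among them, and the difference was 0.54 (95% interval -0.39 to 1.47, adjusted p = 0.567). Its neighbour MX2 was between 3.12 and 3.95 on every array, around the background level. ISG20, an exonuclease gene, was at or below that level on 3 arrays. EIF2AK2, the gene of the RNA-dependent kinase PKR, differed by 0.06 and SAMD9, an antiviral restriction gene, by 0.44, with 95% intervals of -0.60 to 0.71 and -0.12 to 0.99.

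Of the 8 other response genes 6 had lower group means in IUGR, and none separated the groups. PARP9 and DTX3L, whose proteins form a complex that attaches ADP-ribose and ubiquitin to histones and other proteins, and PARP14, an ADP-ribosyltransferase, lie side by side in the genome and all had lower group means in IUGR. PARP9 was 6.81, 6.53, 6.34 and 6.04 in control and 6.41, 4.50, 4.84 and 5.90 in IUGR, with IUGR replicates 2 and 3 the lowest, and differed by -1.01 (adjusted p = 0.346). DTX3L was 6.73, 6.70, 5.97 and 5.55 in control and 5.57, 4.74, 5.34 and 6.16 in IUGR, a difference of -0.79 (adjusted p = 0.397). PARP14 was 7.80, 7.52, 6.99 and 5.70 in control and 5.94, 5.86, 6.35 and 6.87 in IUGR, a difference of -0.75 (adjusted p = 0.523). For both DTX3L and PARP14, control replicate 4 was the lowest control, within the IUGR range for DTX3L and below every IUGR array for PARP14.

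IFI6, a small interferon-induced membrane protein gene, varied more within groups than between them, at 6.35, 6.51, 7.40 and 9.12 in control and 8.72, 8.23, 7.12 and 6.21 in IUGR arrays. IFI44, which encodes an interferon-induced cytosolic protein, was at or below the background level on 5 arrays and reached 5.35 in control replicate 3, a culture in which its neighbour IFI44L was also at its highest, 5.07. IFI44L differed by -0.09, IFI35, whose product binds the partner protein NMI, by -0.51, and XAF1, a pro-apoptotic response gene, by 0.70, with overlapping groups for each. The adjusted p values of these 5 genes ran from 0.340 to 0.972.

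GBP5 was the 1 measured guanylate-binding protein gene, a family of GTPases that interferon gamma induces strongly and that attack vacuoles holding pathogens. Its values in control were 6.66, 7.10, 6.94 and 5.53, and the IUGR arrays had 3.88, 3.30, 4.42 and 4.46. Every IUGR array lay at least 1.0 below the lowest control, control replicate 4, and IUGR replicate 2 was below the background level, so its value is a bound. The means were 6.56 ± 0.71 and 4.01 ± 0.55 (n = 4 each), a difference of -2.54 ± 0.42 (SE) with an adjusted p of 0.101. Against the mean of control replicates 1 to 3 the intensity was 38.3% in control replicate 4 and at most 18.2% in the IUGR arrays.

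The antigen presentation genes differed little in size. TAP2, a chain of the transporter that carries peptides into the endoplasmic reticulum, was 6.56, 6.61, 6.46 and 6.53 in control and 6.02, 6.26, 6.28 and 6.00 in IUGR arrays. The groups did not overlap, and the larger of its group standard deviations, 0.15, was the smallest among the 43 genes. Its means of 6.54 ± 0.06 and 6.14 ± 0.15 give a difference of -0.40 ± 0.08 (SE), which is 1.32-fold, with an adjusted p of 0.123. TAP1, the partner chain, was 6.06, 5.41, 5.56 and 6.11 in control and 5.43, 5.08, 5.53 and 5.33 in IUGR, a difference of -0.44 (95% interval -0.90 to 0.02, adjusted p = 0.342). B2M, the light chain of MHC class I, was 10.19, 10.29, 10.00 and 10.78 in control and 10.82, 10.69, 10.22 and 11.09 in IUGR, overlapping, and its group mean was higher by 0.39 (95% interval -0.17 to 0.95, adjusted p = 0.484).

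The arrays differed from each other across the set as well. IUGR replicate 4 was the highest of the 8 arrays for 15 of the 43 genes (34.9%), beside 16.3% of all rows, and IUGR replicates 2 and 3 were the highest for 1 gene each. IUGR replicates 2 and 3 were the lowest for 9 (20.9%) and 8 genes (18.6%), beside 14.4% and 9.38% of all rows. The mesothelial and epithelial markers, averaged relative to each gene's mean, were also highest in IUGR replicate 4, at 3.39, followed by 2.25 in IUGR replicate 2 and at most -0.55 elsewhere; their part in this was not tested. In 2684 of all rows, but in 0 of the 43 genes, at least 1 array was at the lower limit of 2.56. Ties there were counted for the first array in order, with controls before IUGR arrays. This lowers the shares of all rows for the IUGR arrays, so they are not fully comparable with the shares of the 43 genes. Averaged over the 43 genes, the log2 value relative to each gene's mean was 0.15, 0.16, 0.24 and -0.11 in control replicates 1 to 4 and -0.07, -0.24, -0.34 and 0.21 in IUGR replicates 1 to 4. The highest IUGR array and the 3 highest controls were therefore at similar averages, and the within-group spread was as wide as the distance between groups. The genes with the largest standard deviation within a group were HERC6 at 1.29 and IFI6 at 1.27 in control, DDX58 at 1.21 in IUGR and IFI44 at 1.19 in control. Control replicate 4 was nearer to the IUGR mean than to the mean of the other controls for 24 of the 43 genes (55.8%) and for 50.8% of all rows. The latter share includes rows with every array at the lower limit, where neither mean is nearer.

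**Figure D3:**
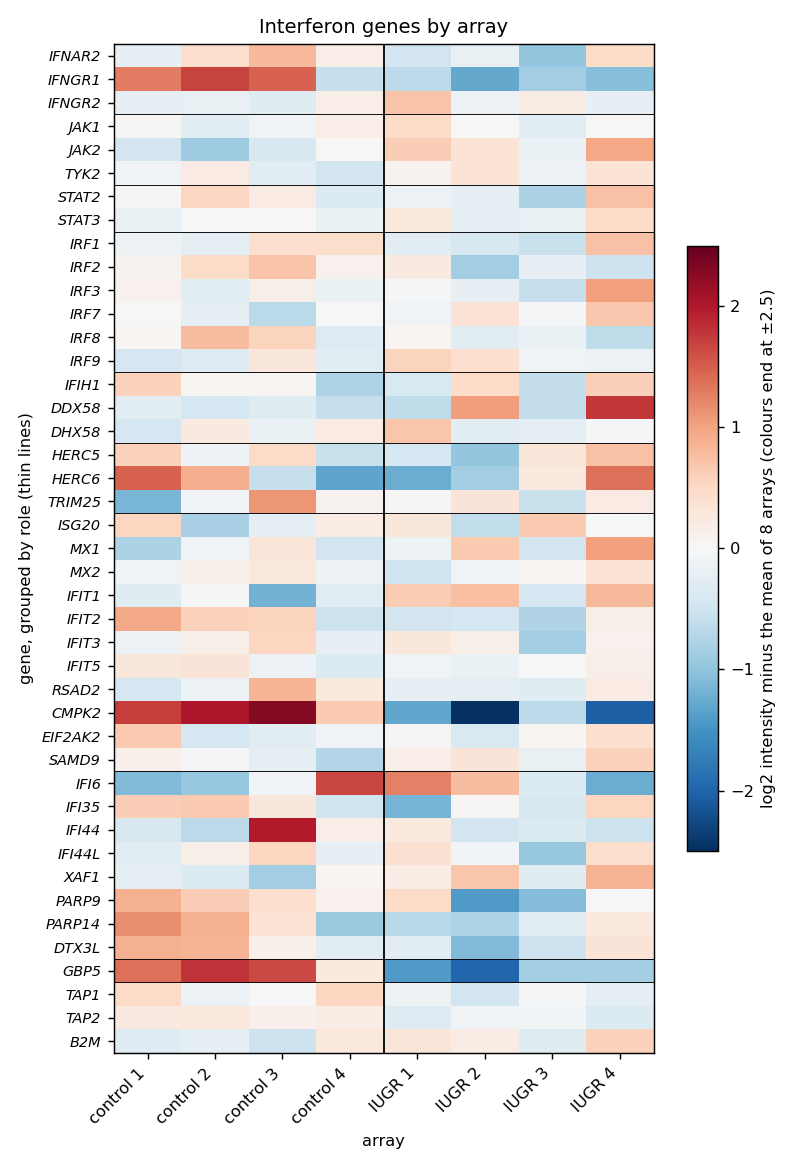
Log2 intensity of the 43 genes (rows, grouped by role) on the 8 arrays (columns), minus each gene's mean over the arrays; red is above and blue below that mean, and colours end at ±2.5. The rows of CMPK2, GBP5 and, faintly, TAP2 change colour between the groups. The row of IFNGR1 is blue in control replicate 4 as well as in the IUGR arrays. IUGR replicate 4 is red for many response genes.

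Calls appeared when control replicate 4, the control with the highest fibroblast markers, was left out. Without it 3 of the 43 genes passed over all rows and were lower in IUGR: CMPK2 by 3.69 (adjusted p = 0.0318), GBP5 by 2.89 (adjusted p = 0.0199) and IFNGR1 by 2.45 (adjusted p = 0.00670). In the same fit 340 rows passed, and 12 of the 43 genes (27.9%) had an unadjusted p under 0.05 against 17.7% of rows. The same 3 genes passed when IUGR replicates 2 and 4, the cultures with the lowest endothelial markers, were left out as well, at adjusted p values of 0.0436, 0.0399 and 0.0307. Leaving out only IUGR replicates 2 and 4 gave no call among the 43 genes or all rows, with adjusted p values of 0.239, 0.257 and 0.446. CMPK2 also passed when only rows at or above the median were tested (adjusted p = 0.0349), and CMPK2 and GBP5 passed with log2(value + 1) (adjusted p = 0.0468 and 0.0480).

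The differences of CMPK2, GBP5, IFNGR1 and TAP2 had the same direction in each alternative that was run. Their groups did not overlap, so leaving out arrays could not change that direction. Changing the prior or the rows tested does not alter the estimate itself. The shared direction is therefore no separate support. CMPK2 was lower in IUGR in 22 of 22 alternatives, by 1.93 to 5.13, with an unadjusted p under 0.05 in all 22. An unadjusted p under 0.05 was found in 21 of 21 alternatives for GBP5, 21 of 22 for TAP2 and 19 of 22 for IFNGR1. The alternatives reuse the same arrays, and these genes were picked by their p or lack of overlap, so such counts are no separate support. In limma the unadjusted p of IFNGR1 was 0.149 with the endothelial score, 0.117 with passage and 0.0642 without IUGR replicates 2 and 4. That of TAP2 was 0.422 with passage. Adjusted for the endothelial marker score, the difference of CMPK2 was -1.93 (adjusted p = 0.528), against -3.35 without it, and with passage it was -5.13 (adjusted p = 0.567). Passage was 5 or 6 in control and 3 or 4 in IUGR cultures, without overlap. Within the groups it varied only through control replicate 1 and IUGR replicate 2. A fit with passage therefore extrapolates and cannot separate passage from group. For CMPK2, GBP5, IFNGR1 and TAP2 its standard errors were larger than in the main fit. No conclusion is drawn from the size of a difference with passage. The endothelial score, averaged over the 15 markers relative to each gene's mean, was 0.796 to 1.94 in control and -3.30 to 0.792 in IUGR arrays. It did not overlap between the groups either, if narrowly. A fit with the score therefore cannot fully separate cell makeup from group, and a smaller difference in it is not assigned to cell makeup. GBP5 differed by -2.02 with the endothelial score and -3.91 with passage (adjusted p = 0.589 and 0.575), and IFNGR1 by -1.28 and -2.98 (adjusted p = 0.784 and 0.651). TAP2 differed by -0.34 with the endothelial score and by -0.23 with passage (adjusted p = 0.663 and 0.881). The other 3 genes at an unadjusted p under 0.05 became much smaller with the endothelial score, JAK2 going from 0.88 to 0.30, IFIT1 from 0.89 to 0.18 and IRF2 from -0.68 to -0.11 (adjusted p = 0.920, 0.998 and 1). With passage they were 0.75, 1.16 and -1.16 (adjusted p = 0.899, 0.854 and 0.751). The titles of control replicate 1 and of IUGR replicates 2 and 3 share a leading number. Between this 1 control and these 2 IUGR arrays the differences were -3.40 for CMPK2, -2.80 for GBP5, -2.35 for IFNGR1 and -0.29 for TAP2. Because the groups of these genes did not overlap, a negative sign was certain, so this comparison is no separate support either. Some other interferon genes, such as JAK1, STAT3, IRF3 and IFIH1, had the opposite sign there to that in the main fit.

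**Figure D4:**
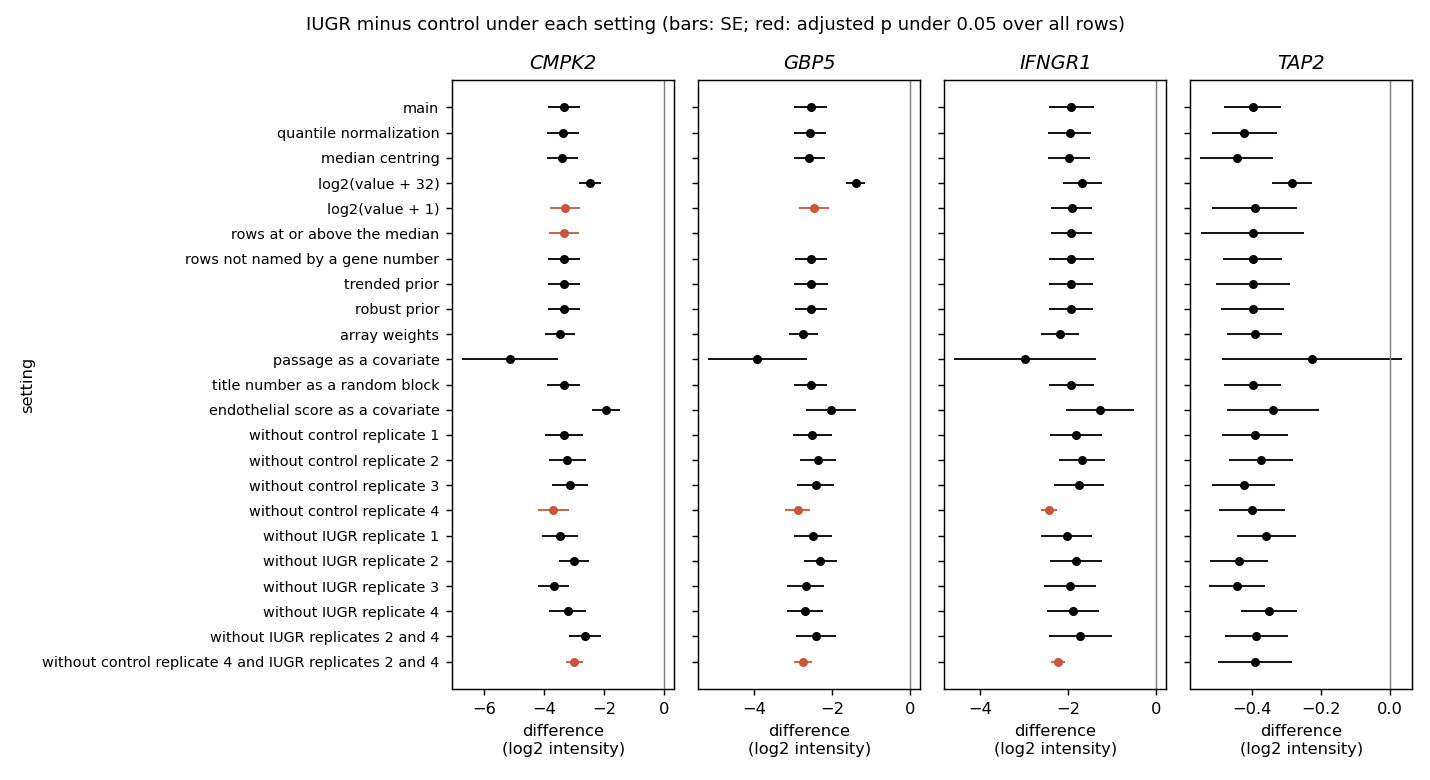
Difference between IUGR and control (log2 intensity, horizontal axis, scaled separately in each panel) of CMPK2, GBP5, IFNGR1 and TAP2 in the main analysis and in each alternative (rows), with bars for the SE and red where the adjusted p was under 0.05. All points lie below 0; GBP5 has none for the setting of rows at or above the median, which it did not enter.

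Beyond the 43, a further list of 113 interferon pathway genes had 80 with a row. None passed over all rows, and the median difference of the 80 was -0.03. An unadjusted p under 0.05 was found for 13 (16.2%), 7 higher and 6 lower in IUGR, against 15.3% of all rows. The groups did not overlap for 8 (10%), 4 higher and 4 lower in IUGR, against 8.36% of all rows. Both shares lie near those of the whole table. The interferon genes in the table, IFNE, IFNG and IFNK, were below the background level on all 8 arrays. The 8 genes with the smallest p included SOCS2, a feedback inhibitor of growth hormone signalling, which was 8.54 ± 0.70 in control and 6.73 ± 0.71 in IUGR (adjusted p = 0.163), and SOCS5 of the same family, which was 6.22 ± 0.12 and 7.17 ± 0.45 (adjusted p = 0.138). LGALS3BP, a secreted galectin-binding glycoprotein, was 7.24, 7.75, 6.72 and 6.98 in control and 9.26, 9.82, 7.95 and 9.90 in IUGR arrays, with every IUGR array above every control (difference 2.06 ± 0.47 (SE), adjusted p = 0.136). STAT5B, a STAT of cytokine and growth hormone receptors, was 8.08 ± 0.25 and 7.30 ± 0.24, lower in all 4 IUGR arrays than in any control (adjusted p = 0.125).

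UBE2L6, the conjugating enzyme for ISG15, was 4.01 ± 0.20 in control and 4.56 ± 0.17 in IUGR (adjusted p = 0.135), and MLKL, the executor of necroptosis, was 4.68 ± 1.03 and 3.00 ± 0.49 (adjusted p = 0.224). DDX60, an antiviral helicase gene, was 3.52 ± 0.16 and 2.86 ± 0.27, and CD274, the gene of PD-L1, was 2.56 ± 0.01 and 3.26 ± 0.20. CD274 exceeded the background level on 1 array at most and DDX60 on no IUGR array, and MLKL was at or below it on 4 arrays, 3 of them IUGR, so these differences rest on values near background.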

How the data were processed

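The authors' deposited table holds linear intensity values in rows named by gene symbol or, for 907 rows, by an NCBI gene number. The scale was read from the values, which run from 2.77 to 8705. Per the labels' protocols, biotinylated cRNA was made from Trizol-extracted RNA; background correction, probe summary, normalization and genome build are not given in the sources used here. Array quantiles nearly coincide, so the values were not normalized again. Before taking log2, values under the table's 10th percentile of 5.89 were set to it (2.56 in log2 units), which understates differences of dim genes.

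Groups came from the treatment label; replicate numbers only name the cultures. A two-sided limma model (version 3.58.1, R 4.3.3) without filter or covariate was fitted with lmFit and eBayes over all 15380 rows, with a threshold of 0.05, after a check on simulated data. The number of arrays limits the precision. Alternatives covered scaling, low values, the prior, array weights, covariates, a random block and left-out arrays. Genes with an unadjusted p under 0.05 or no overlap, and a list of central pathway genes, are given on every array; of other pathway genes, the 8 with the smallest p, and 1 further gene of the rule is not reported here. Genes such as DDX58, HERC6, IFI6, IFI44, IFIT2, IFIH1, PARP9, PARP14 and DTX3L, and the rows IFNAR1E and ISG17, were added after their values were seen. The members and lists were chosen with earlier results of these data known. Gene order and synonyms come from the RefSeq table of assembly ARS-UI_Ramb_v3.0, where 40 of the 43 genes matched 1 entry. Promoter sequences were not used here.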

Additional observations from a re-analysis of the deposited data

Results flagged for a closer look

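IFIT1 was 6.38 in IUGR replicate 3, apart from the other IUGR arrays at 7.44 to 7.61. IFIT3 was 3.54 in the same culture, apart from the other IUGR arrays at 4.49 to 4.67. The gap to the nearest array was 0.865 of the group's range for IFIT1 and 0.836 for IFIT3, above Dixon's 95% critical value for 4 samples. These were 2 of 86 groups examined (2.33%), where chance gives about 5%, so the number of such arrays is no more than chance gives.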

How the results depend on the processing

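No difference of the 7 genes at an unadjusted p under 0.05 changed sign in any alternative that was run, although JAK2, IFIT1 and IRF2 shrank with the endothelial score, and the calls that appeared for CMPK2, GBP5 and IFNGR1 are given with those genes. For CMPK2, GBP5, IFNGR1 and TAP2, whose groups did not overlap, leaving out arrays could not change the sign. The fit with passage cannot separate passage from group, so its signs are no separate support. The endothelial score did not overlap between the groups, so the fit with it cannot fully separate cell makeup from group. Leaving out each array in turn gave 5 to 12 of the 43 genes at an unadjusted p under 0.05 (11.6% to 27.9%, against 11.5% to 17.7% of all rows). In these fits 0 to 3 of the 43 genes and 0 to 340 rows passed the adjusted threshold. Of the 80 other pathway genes, 10 to 23 had an unadjusted p under 0.05. The upper ends all came without control replicate 4; otherwise the rows past the threshold numbered 3 without IUGR replicate 1, 2 without IUGR replicate 2, and 0 without each of the others. Leaving out 3 arrays (control replicate 4, IUGR replicates 2 and 4) gave 11 genes at an unadjusted p under 0.05, 3 genes past the threshold and 304 rows. With log2(value + 1), 2 genes and 61 rows passed; for rows at or above the median, 1 gene and 55 rows, with 7 other pathway genes at an unadjusted p under 0.05, fewer genes being tested. Rows passing numbered 10 when rows named by a gene number were left out, 1 with a trended prior and 20 with array weights, which gave 11 of the 43 genes (25.6%, against 18% of rows) at an unadjusted p under 0.05. The endothelial score as a covariate gave 4 of the 43 (9.3%, against 7.37% of rows) and 3 of the 80 other pathway genes. Passage as a covariate gave 7 of the 43 (16.3%, against 8.48% of rows) and 8 of the 80. All 7 were lower in IUGR, beside 703 rows lower and 601 higher. Of the genes at this threshold in the main fit, only CMPK2 and GBP5 were among them. The causes were not tested. No paired analysis was possible because the replicate numbers were given in accession order and pair no cultures. Leading title numbers as a random block gave a consensus correlation of 0.0123 and no row past the threshold. The table holds no detection calls, so how far a dim gene lies above background is known only from the olfactory receptor rows.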
